A study of Homo sapiens with 9 samples.

Results

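Epithelial-mesenchymal transition (EMT) is driven by a small set of transcription factors and opposed by factors that hold the epithelial state. A set of 10 genes of this kind were taken by symbol from the deposited tables, namely the factors SNAI1, SNAI2, SNAI3, ZEB1, ZEB2 and TWIST1, the mesenchymal filament gene VIM, the epithelial adhesion gene CDH1, and the epithelial regulators ESRP1 and GRHL2. Of these 10 genes, 9 were among the 31558 genes of the count table, and ZEB2 was not analysed here. The study sequenced polyadenylated RNA of HCT116, a human colorectal carcinoma cell line, to ask how the long noncoding RNA CRLM1 (LINC01767) changes the transcriptome. CRLM1-OE samples carried a vector with the full-length CRLM1 cDNA, Ctrl samples the empty control and Anti samples an antisense control, and each of the 3 groups had 3 replicates of the same cell line with no other treatment. The paper describes the sequenced cells as transfected biological replicates, its methods also give a puromycin-selected lentiviral vector with a fluorescent reporter for expressing CRLM1, and whether the cells were pooled or clonal is not given in the sources used here.

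SNAI1, SNAI2, ZEB1 and ZEB2 are zinc-finger repressors that bind E-box sequences, and TWIST1 is a basic helix-loop-helix factor that also binds E-boxes. They are known to repress CDH1, which encodes E-cadherin, the main adhesion molecule of epithelial junctions, and to accompany the appearance of vimentin, the intermediate filament protein of mesenchymal cells encoded by VIM. ESRP1, an RNA-binding protein that sets epithelial splicing, and GRHL2, a transcription factor that activates epithelial junction genes, are repressed by ZEB1, and GRHL2 represses ZEB1 in turn. In colorectal tumours the balance of both sides is read as a sign of an epithelial or mesenchymal state.

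The E-box bound by the SNAI and ZEB factors was searched as CAGGTG, which reads CACCTG on the other strand, in RefSeq promoters of GRCh38.p14 that reach from 250 bases before to 50 bases after each start. Of 35116 promoters, 20.6% held at least 1 copy and 3.49% at least 2. Among the members, ZEB1, ZEB2 and VIM had an entry. The 250 bases before the start are shown for ZEB1, whose RNA was measured beside its antisense partner, for VIM, the member with the largest difference, and for CRB3, an epithelial polarity gene on the list of junction genes described further on, which was picked after its values were seen for its 5 copies. Capitals mark the motif on either strand, and all 3 sequences are on the forward strand.
ZEB1, chr10:31318167-31318416: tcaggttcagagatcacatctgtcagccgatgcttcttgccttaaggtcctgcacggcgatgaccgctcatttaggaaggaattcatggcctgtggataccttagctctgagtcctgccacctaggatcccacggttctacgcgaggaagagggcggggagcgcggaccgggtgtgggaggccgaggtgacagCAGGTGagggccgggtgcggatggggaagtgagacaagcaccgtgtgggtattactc
VIM, chr10:17227991-17228240: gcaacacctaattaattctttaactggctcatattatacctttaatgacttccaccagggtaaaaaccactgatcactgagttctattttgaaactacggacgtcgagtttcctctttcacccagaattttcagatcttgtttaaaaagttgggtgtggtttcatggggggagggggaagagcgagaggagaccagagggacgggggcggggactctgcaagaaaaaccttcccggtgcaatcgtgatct
CRB3, chr19:6464021-6464270: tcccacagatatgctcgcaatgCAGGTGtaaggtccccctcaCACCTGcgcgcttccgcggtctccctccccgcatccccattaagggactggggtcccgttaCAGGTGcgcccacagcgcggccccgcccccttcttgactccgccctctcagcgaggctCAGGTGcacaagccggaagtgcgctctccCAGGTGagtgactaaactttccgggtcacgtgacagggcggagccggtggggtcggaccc
ZEB1 held 1 copy, at base -57 counted from the start, and VIM held 0 in its window. The copies in CRB3 begin at bases -228, -208, -147, -89 and -60.

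The 9 libraries held 33302292 to 44514692 counts, so that 3 counts, the limit that a count of 0 allows, corresponded to 0.0674 to 0.0901 CPM (counts scaled to the library total). CRLM1, listed as RP4-710M16.2, had 32751 to 38704 counts in CRLM1-OE, 0 in Ctrl and 1540 to 1951 in Anti, where strand use in counting was not stated. Markers of colon epithelium (EPCAM, KRT8, KRT18, KRT19, CDH1, CDX2 and VIL1) were detected in every group, 7 of 7, with a summed FPKM of 4849 to 4983 in CRLM1-OE, 5520 to 5558 in Ctrl and 4572 to 4627 in Anti. Most of the sum came from KRT8, KRT18 and KRT19, and VIL1 was near the floor, with 1 to 10 counts in a sample. Mitochondrial genes took 5.62 to 5.71% of counts in CRLM1-OE, 6.39 to 6.54% in Ctrl and 7.17 to 7.28% in Anti, so this share moved with every comparison below and its part in them was not tested. The labels give no batch. In bulk samples, fewer cells that express a gene and less of its RNA per cell cannot be told apart.

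The members lie on several chromosomes of GRCh38 by GENCODE version 44. SNAI1 is on chromosome 20 (49982980 to 49988886, forward strand), SNAI2 on chromosome 8 (48917598 to 48921740, reverse), SNAI3 on chromosome 16 (88677688 to 88686507, reverse) and TWIST1 on chromosome 7 (19020991 to 19117636, reverse). ZEB1 (31318495 to 31529814) and VIM (17228241 to 17237593) are both on the forward strand of chromosome 10. CDH1 is on chromosome 16 (68737292 to 68835537), and ESRP1 (94641074 to 94707466) and GRHL2 (101492439 to 101669726) are on chromosome 8, all 3 on the forward strand. Values are counts over whole genes, so exons, introns and UTRs are not told apart.

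Levels between genes were compared as FPKM, the fragments of a gene divided by its exon length and the mapped fragments of the library. ESRP1 and CDH1 stood far above VIM and ZEB1 in all 3 groups. By mean FPKM the order was ESRP1, CDH1, SNAI1, GRHL2, SNAI3, SNAI2, TWIST1, VIM and ZEB1 in each of the 3 groups. Neighbours whose sample ranges overlapped were ESRP1 and CDH1 as well as TWIST1 and VIM in CRLM1-OE, and SNAI2 and TWIST1 in Ctrl, and in Anti every neighbour was separate. Among the 16962 protein-coding genes of the FPKM table, ESRP1 in Ctrl exceeded 89.9% and CDH1 86.5%, SNAI1 exceeded 68.4%, and VIM and ZEB1 exceeded 33.8% and 25.4%.

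**Figure D1:**
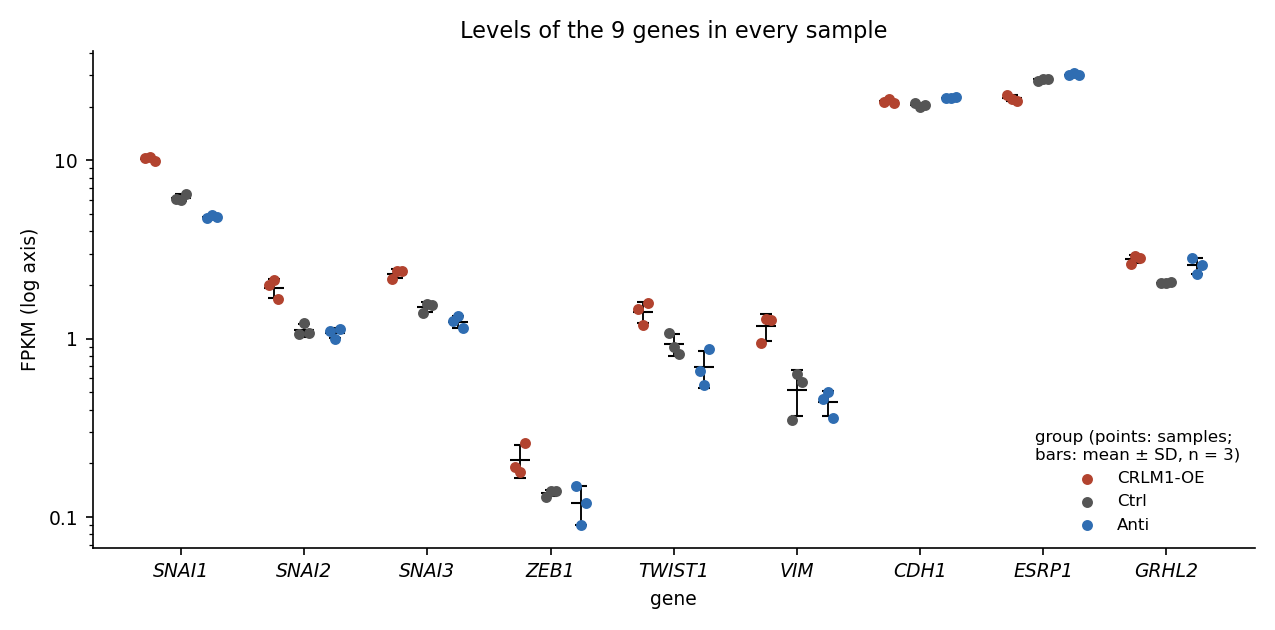
FPKM (log axis) of the 9 measured genes in every sample, with points for samples and black bars for the mean ± SD of 3 replicates in CRLM1-OE (red), Ctrl (grey) and Anti (blue). ESRP1 and CDH1 lie between 19.92 and 30.68 FPKM, ZEB1 lies at or below 0.26, and the CRLM1-OE points of SNAI1 and VIM lie above all points of the other groups.

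The first comparison asks what the CRLM1 vector changed against the empty vector. Of the 9 members, 7 were higher in CRLM1-OE than in Ctrl at an adjusted p of at most 0.05 (edgeR's quasi-likelihood test with Benjamini-Hochberg adjustment over all genes tested), 1 was lower and 1 did not pass. All 5 measured EMT factors and VIM rose, by 1.40 to 2.11-fold. The opponents did not all move one way, since ESRP1 fell, GRHL2 rose and CDH1 did not pass. Only VIM also passed the study's 2-fold limit, and without Ctrl replicate 1 it did not (log2 difference 0.84, adjusted p = 6.7e-05). Over the 29846 genes tested, 15% were higher and 16.8% lower at this adjusted p, and 3.41% passed with the 2-fold limit in either direction. Values of the 2 groups did not overlap for 8 of the 9 members, 7 higher and 1 lower, against 37.5% of all genes.

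Those shares include many genes with few counts. Among the 12941 genes averaging at least 50 counts, 28.6% passed as higher and 36.7% as lower in the CRLM1-OE samples. The split also moved with the scaling, as 4462 genes were higher and 5016 lower with TMM factors, and 6649 were higher and 2951 lower with total counts alone. The median log2 difference of the 12941 genes was -0.04 with TMM and 0.10 with total counts, and the changes given here are relative to TMM.

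SNAI1 had the highest FPKM of the EMT factors among the members, while other EMT-promoting factors, such as TCF3 and FOSL1, lay above it. Its FPKM was 10.26, 10.41 and 9.86 in the CRLM1-OE replicates, 6.04, 5.99 and 6.49 in Ctrl, and 4.75, 4.95 and 4.81 in Anti. Every CRLM1-OE sample was above every Ctrl sample, and every Ctrl sample above every Anti sample. SNAI1 was 1.53-fold higher in CRLM1-OE than in Ctrl (log2 difference 0.61, 95% interval 0.48 to 0.74, adjusted p = 4.2e-18) and 2.04-fold higher than in Anti (1.03, 0.89 to 1.17, adjusted p = 1.5e-45). SNAI1 was also lower in Anti than in Ctrl (log2 difference -0.44, SE 0.08, adjusted p = 7.5e-07), so the 2 control groups differed from each other in this gene.

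SNAI2, also called Slug, gave FPKM values of 2.0, 2.12 and 1.67 in CRLM1-OE, 1.06, 1.22 and 1.07 in Ctrl, and 1.1, 1.0 and 1.13 in Anti. The CRLM1-OE samples lay above all others, while Ctrl and Anti overlapped. SNAI2 was 1.60-fold higher than in Ctrl (log2 difference 0.68, 95% interval 0.42 to 0.93) and 1.74-fold higher than in Anti. Its difference between Anti and Ctrl did not pass (log2 difference -0.14, 95% interval -0.43 to 0.14, adjusted p = 0.58).

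SNAI3, the least studied member of the family, had an FPKM of 2.17, 2.39 and 2.39 in CRLM1-OE, 1.39, 1.57 and 1.55 in Ctrl, and 1.25, 1.34 and 1.14 in Anti. The 3 groups did not overlap. SNAI3 was 1.43-fold higher in CRLM1-OE than in Ctrl (log2 difference 0.51, 95% interval 0.25 to 0.77) and 1.79-fold higher than in Anti, and its lower value in Anti than in Ctrl missed the threshold (-0.35, 95% interval -0.65 to -0.06, adjusted p = 0.071). SNAI1 made up 59.6 to 64.4% of the summed FPKM of SNAI1, SNAI2, SNAI3, ZEB1 and TWIST1 in all 9 samples. The sum itself was 7.97 ± 0.09 (SD, n = 3) in Anti, 9.86 ± 0.19 in Ctrl and 16.05 ± 0.27 in CRLM1-OE, so the total differed by group while the share of SNAI1 stayed within that range.

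ZEB1 had the lowest FPKM of the members. It had 60, 44 and 73 counts in CRLM1-OE, 41, 38 and 35 in Ctrl, and 45, 26 and 32 in Anti, or 0.18 to 0.26, 0.13 to 0.14 and 0.09 to 0.15 FPKM. On FPKM the CRLM1-OE samples were above all others, and Ctrl lay inside the range of Anti. ZEB1 was 1.44-fold higher in CRLM1-OE than in Ctrl (log2 difference 0.52, 95% interval 0.10 to 0.94, adjusted p = 0.047) and 1.64-fold higher than in Anti (0.72, 0.29 to 1.14, adjusted p = 0.0036). The call against Ctrl held in 7 of 15 alternatives, where the adjusted p ranged from 0.0074 to 0.34. Without CRLM1-OE replicate 3 the log2 difference was 0.34 against Ctrl (adjusted p = 0.34) and 0.55 against Anti (adjusted p = 0.066), so neither call held without that library.

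ZEB1-AS1, transcribed from the opposite strand at the ZEB1 start, had 94, 64 and 64 counts in CRLM1-OE, 42, 35 and 46 in Ctrl, and 75, 59 and 63 in Anti. Anti and CRLM1-OE overlapped, and both lay above Ctrl. ZEB1-AS1 was 0.73 higher on the log2 scale in CRLM1-OE than in Ctrl (SE 0.20, adjusted p = 0.0011), and with RLE factors, total counts or any 1 replicate left out the adjusted p was 6.7e-05 to 0.022. It was 0.61 higher in Anti than in Ctrl (SE 0.20, adjusted p = 0.015), a call that was lost without Ctrl replicate 1, Ctrl replicate 2 or Anti replicate 1 (adjusted p = 0.087, 0.056 and 0.061), and the difference between CRLM1-OE and Anti did not pass (0.11, SE 0.18, adjusted p = 0.69). In GENCODE version 44 the exons of ZEB1-AS1 overlap 396 bases (4.58%) of the exons of ZEB1, and without stated strand use the reads of both genes cannot be told apart there. The same holds for 177 bases (10.2%) of SNAI3 with SNAI3-AS1, which had 11 to 26 counts, and for 656 bases (12.7%) of VIM with VIM-AS1, which had 0 to 9. Opposite-strand genes without a symbol also overlap VIM (619 bases, 12%), CDH1 (347, 5.71%), TWIST1 (141, 7.06%), SNAI2 (121, 3.69%) and GRHL2 (50, 0.826%). The counts of these genes are not given here. Of the miR-200 family, microRNAs that target ZEB1, the genes MIR200A, MIR200B and MIR429 had 0 to 4 counts in any sample. Counts at these genes in polyadenylated RNA do not measure the mature microRNAs, so no difference in miR-200 can be read here. MIR200C, MIR141 and MIR200CHG were not found in the count table. Of the 11 antisense and host genes listed at the members 7 were tested, and only ZEB1-AS1 passed in a comparison.

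TWIST1 was measured with 39 to 117 counts. Its FPKM was 1.47, 1.2 and 1.58 in CRLM1-OE, 1.07, 0.9 and 0.82 in Ctrl, and 0.66, 0.55 and 0.87 in Anti. The CRLM1-OE samples were above all others, and the highest Anti sample was above the lowest Ctrl sample. TWIST1 rose 1.40-fold against Ctrl (log2 difference 0.49, 95% interval 0.16 to 0.81, adjusted p = 0.011) and 1.99-fold against Anti (0.99, 0.65 to 1.34, adjusted p = 1.1e-07). The call against Ctrl was lost without CRLM1-OE replicate 3 (0.40, adjusted p = 0.087), without Ctrl replicate 3 (0.43, adjusted p = 0.054) and in DESeq2 (0.50, adjusted p = 0.055). TWIST1 was lower in Anti than in Ctrl (-0.53, SE 0.20, adjusted p = 0.031), which held in 8 of 15 alternatives and was lost without Ctrl replicate 1 (-0.41), Anti replicate 1 (-0.49) or Anti replicate 2 (-0.39).

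VIM had the largest difference of the members. It had 96, 105 and 119 counts in CRLM1-OE, 37, 55 and 48 in Ctrl, and 45, 45 and 31 in Anti, or 0.94 to 1.29, 0.35 to 0.63 and 0.36 to 0.5 FPKM. No CRLM1-OE sample overlapped either control, and the 2 controls overlapped each other. VIM was 2.11-fold higher than in Ctrl (log2 difference 1.08, 95% interval 0.73 to 1.43, adjusted p = 1.1e-08) and 2.54-fold higher than in Anti (1.35, 0.99 to 1.71, adjusted p = 1.9e-12), and Anti against Ctrl did not pass (-0.29, 95% interval -0.72 to 0.14, adjusted p = 0.44). Without Ctrl replicate 1 the difference from Ctrl was 0.84, under 2-fold, and it was 0.52 in limma on log2(FPKM + 1), a scale that shrinks the differences of low genes. By mean FPKM in CRLM1-OE, VIM exceeded 40.4% of protein-coding genes.

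Of 6 fibroblast markers tested, COL1A1 rose against Ctrl and against Anti, and the other 5 did not pass in either comparison. The summed FPKM of the list was 2.07 to 2.51 in CRLM1-OE, 1.19 to 1.28 in Ctrl and 1.27 to 1.44 in Anti, with 6 of 7 genes in the table. COL1A1 carried most of it, at 305 to 652 counts, while COL1A2, COL3A1, DCN and THY1 had 0 to 3 counts in any sample, and PDGFRB had 1 to 12. Leukocyte markers summed to 1.91 to 2.04 FPKM in CRLM1-OE, 1.58 to 1.74 in Ctrl and 1.34 to 1.5 in Anti, where CD68 had 107 to 167 counts and PTPRC had 0 to 2. Endothelial markers summed to 0.05 to 0.14 FPKM in all samples. All samples were of the same cell line, and whether any other cells had a part in the VIM difference was not tested.

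CDH1 lay between 19.92 and 22.49 FPKM in all 9 samples. Its FPKM was 21.27, 22.01 and 20.79 in CRLM1-OE, 21.04, 19.92 and 20.34 in Ctrl, and 22.43, 22.26 and 22.49 in Anti. CRLM1-OE and Ctrl overlapped, and Anti was above both. On the TMM scale CDH1 differed between CRLM1-OE and Ctrl by -0.05 (log2, 95% interval -0.11 to 0.0068, adjusted p = 0.21), and with total counts the sign turned (0.09, adjusted p = 0.010). Against Anti it fell by 0.11 on the log2 scale (95% interval -0.17 to -0.06, adjusted p = 1.0e-04). That call was lost with total counts (-0.06, adjusted p = 0.087). Anti against Ctrl did not pass (0.04, SE 0.03, adjusted p = 0.41), and it passed with total counts (0.15, adjusted p = 4.9e-06).

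ESRP1 was the member that fell. Its FPKM was 23.16, 21.98 and 21.54 in CRLM1-OE, 27.91, 28.7 and 28.51 in Ctrl, and 30.1, 30.68 and 29.87 in Anti. Every CRLM1-OE sample lay below every control sample. The fall was 0.47 on the log2 scale against Ctrl (95% interval -0.53 to -0.41, adjusted p = 3.0e-51) and 0.49 against Anti (95% interval -0.54 to -0.43, adjusted p = 8.9e-67), a fold of 0.72 and 0.71. Anti against Ctrl did not pass, with an interval from -0.06 to 0.06 around 0, although FPKM, which is scaled to mapped reads, put every Anti sample above every Ctrl sample and total counts gave a difference of 0.10 (log2, adjusted p = 0.0014).

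GRHL2 moved the other way from ESRP1. Its FPKM was 2.63, 2.92 and 2.82 in CRLM1-OE, 2.04, 2.04 and 2.07 in Ctrl, and 2.84, 2.29 and 2.58 in Anti. CRLM1-OE and Anti overlapped, and both were above Ctrl. GRHL2 was 1.26-fold higher in CRLM1-OE than in Ctrl (log2 difference 0.33, 95% interval 0.19 to 0.47, adjusted p = 1.2e-05), and the difference between CRLM1-OE and Anti did not pass (0.07, 95% interval -0.06 to 0.20, adjusted p = 0.49). In Anti it was 1.18-fold higher than in Ctrl (0.24, SE 0.07, adjusted p = 0.0058), a call that was lost without Anti replicate 1 (0.15, adjusted p = 0.21).

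**Figure D2:**
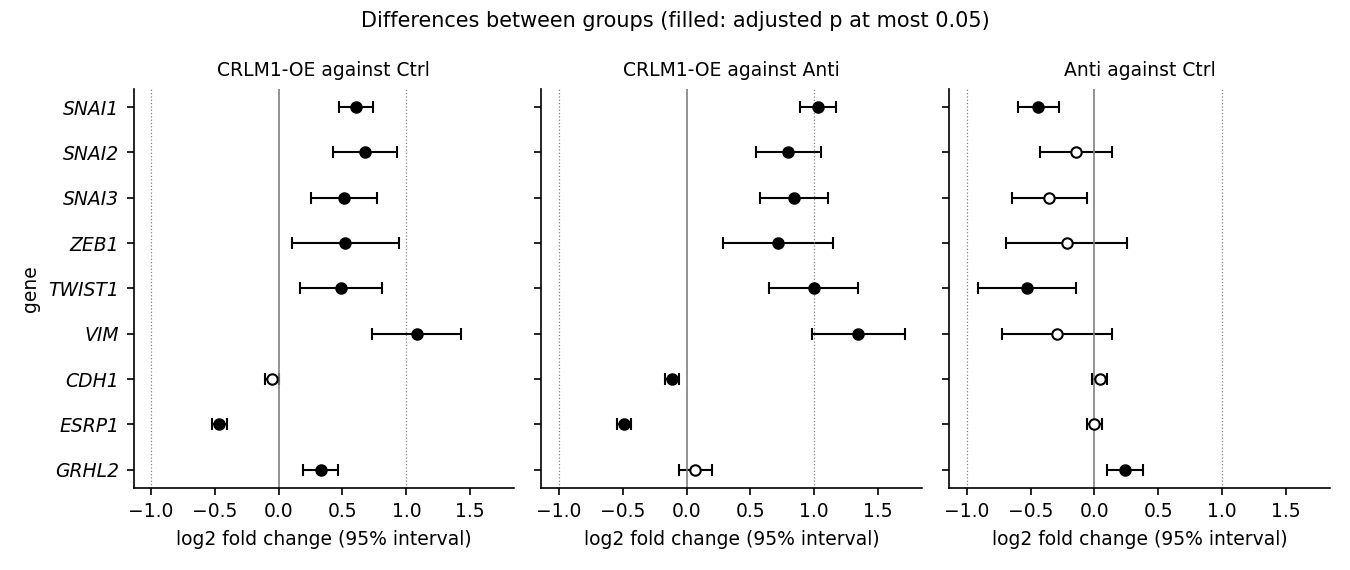
Log2 fold change (points, with 95% intervals from edgeR's quasi-likelihood test) of the 9 genes in the 3 comparisons, filled where the adjusted p is at most 0.05, with dotted lines at 2-fold. SNAI1, SNAI2, SNAI3, ZEB1, TWIST1 and VIM lie right of 0 in both CRLM1-OE comparisons, ESRP1 lies at -0.47 and -0.49, and CDH1 lies between -0.11 and 0.04 in all 3.

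The second comparison sets CRLM1-OE against the antisense vector and shares its CRLM1-OE samples with the first. Of the 9 members, 6 were higher in CRLM1-OE than in Anti, 2 were lower and 1 did not pass, and SNAI1 and VIM passed the 2-fold limit, which in limma on log2(FPKM + 1) neither reached (0.94 and 0.59). The 5 EMT factors and VIM rose by 1.64 to 2.54-fold, ESRP1 and CDH1 fell, and GRHL2 did not pass. Of the 30183 genes tested, 17.1% were higher, 18.5% were lower and 5.65% passed with the 2-fold limit, and among genes averaging at least 50 counts the shares were 33.3% higher and 38.9% lower. Values did not overlap for 8 of the 9 members, 6 higher and 2 lower, against 41% of all genes.

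The third comparison, of the 2 controls, uses the same Ctrl and Anti samples. GRHL2 was higher in Anti than in Ctrl, SNAI1 and TWIST1 were lower, and the other 6 members did not pass. None of the 9 reached the 2-fold limit. Of the 29714 genes tested, 11.5% were higher and 12.2% lower in Anti, and 1.06% passed with the 2-fold limit. Values did not overlap for 4 of the 9 members, 2 higher (CDH1 and GRHL2) and 2 lower (SNAI1 and SNAI3), against 31% of all genes. With total counts 5500 genes were higher and 2029 lower, against 3406 and 3635 with TMM.

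Ratios within a sample do not depend on the scaling between libraries. VIM amounted to 4.42 to 6.16% of CDH1 by FPKM in CRLM1-OE, 1.66 to 3.16% in Ctrl and 1.60 to 2.25% in Anti. SNAI1 amounted to 44.3 to 47.4% of ESRP1 in CRLM1-OE, 20.9 to 22.8% in Ctrl and 15.8 to 16.1% in Anti. CRLM1-OE was above both controls in each ratio, and the controls overlapped in the first ratio and were separate in the second.

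**Figure D3:**
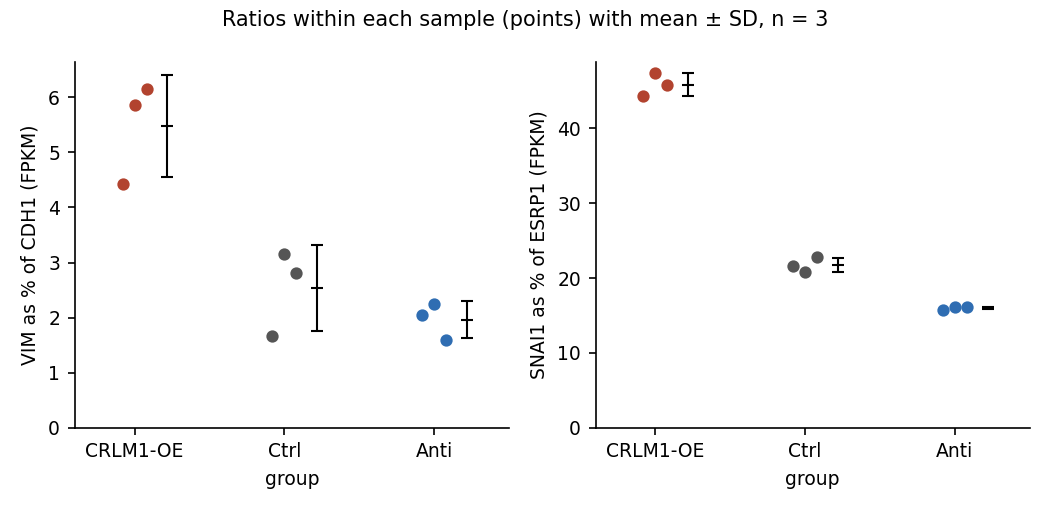
VIM as a percentage of CDH1 (left) and SNAI1 as a percentage of ESRP1 (right), both from FPKM, with points for samples and bars for the mean ± SD of 3 replicates. The CRLM1-OE samples reach 6.16% and 47.4% and lie above all control samples, and CDH1 exceeds VIM in every sample.

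Other genes of the EMT pathway were read from 7 lists. Their counts stand beside the shares of all genes, which in Anti against Ctrl were 23.96% higher and 26.88% lower among those averaging at least 50 counts. The lists themselves were not filtered by counts. In CRLM1-OE against Ctrl, 8 other EMT-promoting factors, 15 epithelial factors and 14 TGF-beta genes averaged at least 50 counts. Over all genes tested in that comparison, 15% were higher and 16.8% lower. Of 17 other EMT-promoting transcription factors, 13 were in the table, and against Ctrl 4 rose (30.8%), 3 fell (23.1%) and 6 did not pass, beside 28.6% higher and 36.7% lower among all genes averaging at least 50 counts. MSX2, a homeobox factor, rose by 0.56 (SE 0.07) on the log2 scale and TCF3, which encodes the E-box factor E47, by 0.34 (SE 0.03). FOSL1, an AP-1 subunit, fell by 0.72 (SE 0.02), from 259 to 271 FPKM in Ctrl to 174 to 178 in CRLM1-OE, and HMGA2, a chromatin factor that induces SNAI1 and TWIST1 in other cells, fell by 0.63 (SE 0.04). HMGA2 was 0.56 (SE 0.03) higher in Anti than in Ctrl. Against Anti 3 of the 13 rose and 4 fell, and in Anti against Ctrl 4 rose and 1 fell.

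The mesenchymal markers did not move together with VIM as a list. Of 25 genes, 23 were tested against Ctrl, of which 5 rose (21.7%), 4 fell (17.4%) and 14 did not pass, beside 15% higher and 16.8% lower over all genes tested. The list had a median log2 difference of 0.52, against 0.02 over all genes tested, and its median gene had a mean of only 18.8 counts. TAGLN, an actin-binding protein of smooth muscle and myofibroblasts, rose by 1.19 (SE 0.09), from 1.77 to 2.02 FPKM in Ctrl to 4.58 to 4.66 in CRLM1-OE. COL1A1, a fibrillar collagen chain, rose by 0.75 (SE 0.07). S100A4, a calcium-binding protein often used as a fibroblast marker, fell by 1.42 (SE 0.03), from 164 to 178 FPKM to 66.3 to 69.7, and the receptor kinase gene AXL fell by 0.67 (SE 0.03). CDH2, the N-cadherin gene whose gain against CDH1 defines the cadherin switch, was listed at 0.01 FPKM in each CRLM1-OE sample and at 0 in the others, and its difference did not pass (adjusted p = 0.11). Against Anti 8 of 22 rose, FN1 (fibronectin, by 0.97, SE 0.05) among them, and 4 fell. In Anti against Ctrl 3 of 20 rose and 5 fell.

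Epithelial junction and adhesion genes changed in both directions. Of 34 genes, 13 rose (38.2%), 12 fell (35.3%) and 9 did not pass against Ctrl, with a median of 0.02, beside 28.6% higher and 36.7% lower among all genes averaging at least 50 counts. With total counts 20 of the list rose and 7 fell. CGN (cingulin, a tight junction scaffold) rose by 1.05 (SE 0.05) and CLDN4 (a claudin of the tight junction strand) by 0.92 (SE 0.02), from 78.4 to 80.7 FPKM in Ctrl to 160 to 163 in CRLM1-OE. KRT18, an epithelial keratin, fell by 1.00 (SE 0.02) and CLDN3 by 0.66 (SE 0.05). CRB3, whose promoter is shown above, had 16.27, 17.94 and 16.73 FPKM in CRLM1-OE, 21.08, 22.27 and 21.4 in Ctrl, and 21.1, 20.62 and 20.76 in Anti. CRLM1-OE lay below both controls, by 0.46 (SE 0.05, adjusted p = 7.5e-22) on the log2 scale against Ctrl and by 0.34 (SE 0.05) against Anti. Of the list, 19 of 34 genes had a promoter entry, fewer than 80%, so a comparison of the list by motif is void and none was made. Genes of the list with a copy did not move together against Ctrl. CRB3, PATJ, AP1M2, RAB25 and CLDN3 fell, CDS1 rose, and DSP, OCLN and TJP1 did not pass. The fall of RAB25 was small (0.12, SE 0.03), and on FPKM its groups overlapped, at 104 to 108 in CRLM1-OE and 104 to 106 in Ctrl. The part of the motif in these differences was not tested. Against Anti 19 of the 34 rose and 10 fell, and in Anti against Ctrl 5 rose and 16 fell, which became 14 and 11 with total counts.

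Epithelial transcription factors and splicing regulators include the paralogs of ESRP1 and GRHL2. Of 20 genes, 9 rose against Ctrl, 3 fell and 8 did not pass, with a median of 0.28, beside 28.6% higher and 36.7% lower among all genes averaging at least 50 counts. Both paralogs of GRHL2 rose against Ctrl, GRHL3 by 0.64 (SE 0.13) and GRHL1 by 0.36 (SE 0.11). ESRP2, the paralog of ESRP1, rose by 0.25 (SE 0.05, adjusted p = 1.5e-05) where ESRP1 fell, with 6.15 to 7.22 FPKM in CRLM1-OE and 5.07 to 5.38 in Ctrl. EHF, an epithelial ETS factor, had the largest fall, by 1.19 (SE 0.06), with 3.34 to 3.47 FPKM in CRLM1-OE, 6.83 to 7.46 in Ctrl and 10.13 to 10.5 in Anti. TFCP2L1, of the wider grainyhead family, rose by 0.49 (SE 0.05), and KLF5 fell by 0.11 (SE 0.03) and turned to 0.03 with total counts. Against Anti 7 rose and 2 fell, and in Anti against Ctrl 4 rose and 5 fell. GRHL1 was 0.41 (SE 0.11) higher in Anti than in Ctrl. In CRLM1-OE against Anti, GRHL3 rose by 0.65 (SE 0.13). ESRP2 (-0.0041, SE 0.05, adjusted p = 0.98) and GRHL1 (-0.08, SE 0.10, adjusted p = 0.58) did not pass there.

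**Figure D4:**
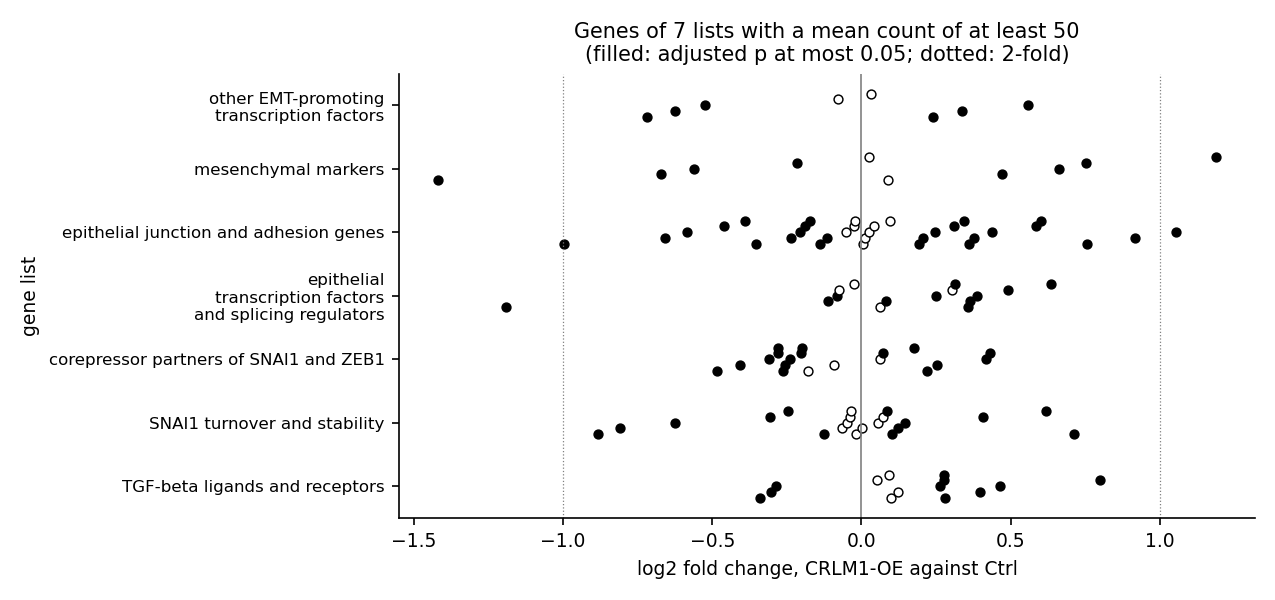
Log2 fold change of CRLM1-OE against Ctrl for the genes of 7 lists with a mean count of at least 50, 1 point for each gene, filled where the adjusted p is at most 0.05, with dotted lines at 2-fold. Every list has filled points on both sides of 0, with S100A4 at -1.42 and TAGLN at 1.19 as the outermost points.

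Cofactors and regulators of the SNAI and ZEB proteins were mixed. Among all genes averaging at least 50 counts, 28.6% were higher and 36.7% lower against Ctrl. Of 19 corepressor partners, 6 rose (31.6%) and 10 fell (52.6%) against Ctrl (median -0.20), 5 rose and 10 fell against Anti, and 5 rose and 4 fell in Anti against Ctrl, where total counts gave 13 and 0. EZH2 and SUZ12, subunits of Polycomb repressive complex 2, fell by 0.48 (SE 0.06) and 0.41 (SE 0.06) against Ctrl, and AJUBA, a LIM protein that binds SNAI1, rose by 0.42 (SE 0.03). Of 22 genes of SNAI1 turnover, 7 rose and 7 fell against Ctrl (31.8% each, median -0.03), and with total counts 12 and 6. LATS2, a kinase that stabilises SNAI1 in the nucleus, rose by 0.71 (SE 0.05), from 4.25 to 4.53 FPKM to 7.5 to 8.22, and USP27X, a deubiquitinase of SNAI1, by 0.62 (SE 0.17). LOXL2, a lysyl oxidase that binds SNAI1, fell by 0.81 (SE 0.03). Against Anti, LATS2 rose by 0.80 (SE 0.04), LOXL2 fell by 0.47 (SE 0.02) and USP27X did not pass (0.24, SE 0.16, adjusted p = 0.25). Against Anti 7 of 21 rose and 8 fell, and in Anti against Ctrl 3 of 22 rose and 9 fell, which became 8 and 3 with total counts.

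TGF-beta is a main inducer of SNAI1 and ZEB1. A list of 20 genes held its ligands, receptors and extracellular regulators, and also SKI, SKIL and TGIF1, which act in the nucleus. Of the 20, 9 rose (45%), 4 fell (20%) and 7 did not pass against Ctrl (median 0.27). Only 14 of the 20 averaged at least 50 counts, and among all genes at that level 28.6% were higher and 36.7% lower. LTBP4 and LTBP2, of the family named for binding latent TGF-beta, which not every member does, rose by 0.80 (SE 0.03) and 0.46 (SE 0.09). The ligand gene TGFB1 fell by 0.34 (SE 0.03), from 26.3 to 28.0 FPKM in Ctrl to 22.1 to 23.9 in CRLM1-OE, and TGIF1, a repressor of SMAD targets, fell by 0.30 (SE 0.03). Against Anti 8 rose and 6 fell, and in Anti against Ctrl 5 rose and 2 fell, which became 9 and 2 with total counts, with TGFB1 0.40 (SE 0.03) lower in Anti.

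The genes most like SNAI1, SNAI2 and VIM across the 9 samples were sought among 12940 others averaging at least 50 counts, by the root mean square difference of log2 CPM after centring each gene. Nearest to SNAI1 were SLC25A1, the mitochondrial citrate carrier (0.030), PNPLA2, a triglyceride lipase (0.043), and ABHD4 (0.050), where the median gene was at 0.45. SLC25A1 had 96.9 to 101 FPKM in CRLM1-OE, 58.4 to 59.7 in Ctrl and 45.3 to 48.4 in Anti, the same order of groups as SNAI1. Nearest to SNAI2 were LRP11 (0.082), TRIB1 (0.087) and SLC25A22 (0.090), with a median gene at 0.40. Nearest to VIM were EGR3, an immediate early zinc-finger factor (0.18), RP11-147L13.13 (0.21) and UNC5A (0.21), with a median gene at 0.65, and EGR3 had 0.86 to 1.18 FPKM in CRLM1-OE, 0.37 to 0.46 in Ctrl and 0.3 to 0.49 in Anti. These distances describe 9 samples of 3 groups, and they were not tested.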

How the data were processed

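RNA of HCT116 cells was sequenced in 9 samples, grouped by their labels into CRLM1-OE, Ctrl and Anti with 3 replicates each. Libraries were made with the KAPA RNA HyperPrep Kit for paired-end sequencing. The authors trimmed reads with the FASTX-Toolkit, aligned them with TopHat2 to GRCh38 with a Gencode annotation and deposited, for each gene, raw counts of reads that mapped uniquely. The authors also deposited FPKM values to 2 decimals, scaled for exon length and mapped fragments, which for ZEB1 and VIM leaves few digits. The submitters' processing notes also name bcl2fastq and edgeR. Strand use and how read pairs were counted are not given in the sources used here.

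From the counts, edgeR 4.0.16 in R 4.3.3 (TMM factors, quasi-likelihood test, 2-sided, Benjamini-Hochberg) was run on each pair of groups over genes with at least 1 count in the 6 samples. The threshold was an adjusted p of 0.05, and the study's own limit adds a 2-fold change. Overlap was read from CPM with TMM factors over all 9 samples. The script was tested on simulated data. With 3 samples a group, the smallest 2-sided p of an exact permutation test is 0.1, so none is given for single genes, and p-values measure the spread between these samples only.

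The members and gene lists were chosen with earlier results of these data known. From each list the text names up to 2 genes with the largest rise and 2 with the largest fall among those past the threshold with a mean count of at least 50, all antisense partners with reads, and for SNAI1, SNAI2 and VIM the 3 nearest profiles (prior count 2). Of the genes this rule names, 2 are not reported here. CRB3, the other junction genes named for the motif, CDH2, GRHL1, ESRP2 and the miR-200 genes were added after their values were seen. Alternatives were RLE factors, total counts, filterByExpr, at least 10 counts in every sample, DESeq2 1.42.0, limma 3.58.1 on log2(FPKM + 0.1) and log2(FPKM + 1), all 9 samples in 1 fit, a replicate block and each replicate left out. Sequences came from RefSeq promoters (GRCh38.p14) and positions from GENCODE version 44.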

Additional observations from a re-analysis of the deposited data

How the results depend on the processing

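Against Ctrl, 5 to 8 members were higher in CRLM1-OE and 1 was lower over all alternatives. Against Anti 5 or 6 were higher, and 1 member was lower in place of 2 with total counts and with limma on log2(FPKM + 0.1) or log2(FPKM + 1). In Anti against Ctrl 3 members were higher with total counts and limma on log2(FPKM + 0.1) and 2 with log2(FPKM + 1), while 1 was lower with total counts, DESeq2 and both limma fits. Leaving out 1 replicate at a time gave 0 to 1 higher there (0 without Anti replicate 1) and 1 to 2 lower (1 without Ctrl replicate 1, Anti replicate 1 or Anti replicate 2). CDH1 against Ctrl turned from -0.05 to 0.0895 with total counts and to 0.0634 and 0.0608 in the limma fits (pseudocounts 0.1 and 1). ESRP1 in Anti against Ctrl, at -0.00011, turned to 0.00062 with RLE factors, 0.10 with total counts, 0.0028 with filterByExpr, 0.0048 with at least 10 counts, 0.00058 in DESeq2, 0.0905 and 0.0878 in the limma fits and 0.0251 with all 9 samples, and ranged from -0.015 to 0.020 with 1 replicate left out. Of the members' differences under these alternatives, 359 kept direction and call, 26 lost the call, 5 gained it and 15 turned sign. The cause was not tested. Samples of the same number did not deviate together (mean correlation of deviations 0.0022, range -0.07 to 0.08), and the replicate block gave 7 members higher and 1 lower in CRLM1-OE against Ctrl, 6 and 2 against Anti, and 1 and 2 in Anti against Ctrl, as without it. At 26 to 73 counts, ZEB1 had the widest intervals of the members, and depth limits its comparisons.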
